A study of Mus musculus with 30 samples.

Results

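The 9 genes described here write, erase or read DNA methylation and were followed through 5 tissues of adult C57BL/6 mice: the methyltransferases Dnmt1, Dnmt3a and Dnmt3b, the hemimethylation reader Uhrf1, the dioxygenases Tet1, Tet2 and Tet3, the glycosylase Tdg and the methyl-CpG reader Mbd2. They were taken as the rows of the 5 deposited count tables whose gene identifier maps to those symbols, and all 9 were found among 48709 genes. The study sequenced RNA of brain, kidney, liver, muscle (quadriceps femoris) and spleen, with 3 wild-type (WT) and 3 Ctcf+/- libraries in each tissue and 30 libraries in all. Ctcf+/- animals are haploinsufficient for Ctcf, a zinc-finger protein that binds DNA at the boundaries of chromatin loops and whose binding at many sites is sensitive to methylation. Both genotypes carry the C57BL/6 strain label, and no drug or other treatment is named for either. The design names 3 mice of each genotype. How the Ctcf allele was disrupted, the sex and exact age of the mice, and which libraries of different tissues came from the same mouse are not given in the sources used here, and no label ties a library to a mouse, so p-values measure the spread between these libraries.

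DNA methylation is copied after replication by Dnmt1, which Uhrf1 brings to hemimethylated sites behind the fork, and is laid down at new sites by Dnmt3a and Dnmt3b. Tet enzymes oxidize 5-methylcytosine, and Tdg excises the further oxidized bases so that base excision repair can restore cytosine. Mbd2 binds methylated CpG and recruits the NuRD remodelling and deacetylase complex.

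The series as a whole set the limits of these comparisons. Libraries held 49.8 to 131.6 M counts. Levels are given as CPM, counts scaled to library size by TMM (trimmed mean of M-values), and levels of different genes are compared as CPM per kb of exon length. Ctcf, the check of the labels, had a lower level in every Ctcf+/- library than in every WT library of its tissue, at 61.4% to 67.2% of the WT mean. Each tissue held its own markers at high levels, all 6 of the list in every case: neuronal markers summed to 4100 to 4920 CPM in WT brain, tubule markers to 19800 to 21200 CPM in WT kidney, hepatocyte markers to 228000 to 317000 CPM in WT liver, muscle markers to 250000 to 263000 CPM in WT muscle and B cell markers to 2640 to 3330 CPM in WT spleen. Because these are whole tissues, fewer cells of a type and less RNA per cell cannot be told apart.

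Promoter sequence is shown for the maintenance pair Uhrf1 and Dnmt1 and for Tet3, another member far higher in spleen. An E2F-like motif lies in both windows of Uhrf1 and in only the most CpG-rich window of Dnmt1. The window of Tet3 holds none. RefSeq windows on GRCm38.p6, running from 250 bases before to 50 bases after an annotated start, were found for 8 members in 13 windows, Mbd2 being the member without one here. Capitals mark matches to TTTNNCGC, an E2F-like motif searched on both strands. E2F factors drive genes of S phase.
Uhrf1, chr17:56304063-56304312, plus strand, 250 bases before a start: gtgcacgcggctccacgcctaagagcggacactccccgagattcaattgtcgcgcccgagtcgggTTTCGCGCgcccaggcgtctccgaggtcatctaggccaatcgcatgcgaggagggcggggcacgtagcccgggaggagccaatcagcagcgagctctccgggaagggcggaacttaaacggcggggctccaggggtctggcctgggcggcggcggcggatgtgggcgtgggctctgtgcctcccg
Dnmt1, chr9:20952823-20952852, minus strand, 30 bases around 2 overlapping matches: gtttccgcgcGCGCGAAAAAgccggggtct
Tet3, chr6:83441679-83441928, minus strand, 250 bases before a start: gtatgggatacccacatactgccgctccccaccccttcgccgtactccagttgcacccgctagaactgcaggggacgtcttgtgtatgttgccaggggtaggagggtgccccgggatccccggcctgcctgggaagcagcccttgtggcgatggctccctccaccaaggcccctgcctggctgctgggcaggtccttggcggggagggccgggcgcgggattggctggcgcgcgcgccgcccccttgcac

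Other motifs were searched in the same windows. A CTCF-like motif was present in 0 of the 13 member windows and in 1.04% of all windows. A GC box and another common promoter box were present in 35.7% and 37.4% of all windows. Both boxes matched in windows of Uhrf1, Dnmt1 and Tet3, so they do not separate these genes. The E2F-like motif was present in 3 of the 13 member windows and in 5.17% of all 32851 windows. These 3 were both windows of Uhrf1 and the most CpG-rich of the 3 windows of Dnmt1. In the stretch printed for Uhrf1 the match begins 185 bases before the start, and in Dnmt1 the first begins 219 bases before the start, inside the first exon of another annotated transcript. CpG dinucleotides numbered 33 in the CpG-richest window of each of these genes, against a median of 7 over all windows, and a match is a description of letters, not a site shown to be bound. Tet2 had the most CpG of any member window, 57, more than 99.8% of windows, and 12 of the 13 member windows were above the median.

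The maintenance writer Dnmt1 (ENSMUSG00000004099, GRCm38 chromosome 9, 20907206 to 20959888, minus strand) was highest in spleen. The WT spleen libraries held 136, 183 and 106 CPM, and the Ctcf+/- spleen libraries 122, 138 and 156 CPM. All 6 were above every library of every other tissue. In WT the mean level was 142 ± 38.8 CPM in spleen (SD, n = 3), 45.6 ± 2.78 in brain, 18.5 ± 3.43 in liver, 16.9 ± 1.41 in kidney and 11.5 ± 1.47 in muscle. The spleen level was 3.11-fold the brain level, a log2 difference of 1.58 (SE 0.17, edgeR quasi-likelihood adjusted p = 8.74e-07). Liver and kidney, neighbours in that order, did not differ beyond their spread (log2 difference 0.1, SE 0.17, edgeR adjusted p = 0.646), and under scaling by total counts kidney stood above liver.

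Uhrf1 (ENSMUSG00000001228, chromosome 17, 56303321 to 56323486, plus strand), the protein that reads hemimethylated CpG for Dnmt1, had the widest range of the 9. In spleen it stood at 88.5, 105 and 36.3 CPM in WT and at 38.3, 85.7 and 69.7 CPM in Ctcf+/- libraries. Its WT means elsewhere were 1.98 ± 0.0749 CPM in kidney, 1.54 ± 0.986 in liver, 1.18 ± 0.154 in brain and 1.03 ± 0.748 in muscle (SD, n = 3). Spleen was 38.6-fold above kidney, a log2 difference of 5.23 (SE 0.54, edgeR adjusted p = 5.91e-07), and no library of another tissue reached the lowest spleen library. Among kidney, liver, brain and muscle, no neighbours in the order differed beyond their spread (edgeR adjusted p of 0.538 to 0.924). Uhrf2, its paralogue, stood at 57.7 ± 8.33 CPM in WT spleen and 19.6 to 42.2 CPM on average in the other tissues. Per kb of exon length Dnmt1 exceeded Uhrf1 by 26.3 ± 3.21 times in WT brain and by 1.39 ± 0.497 times in WT spleen, and the library ranges, 23 to 29.4 and 1.04 to 1.96, do not overlap.

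**Figure D1:**
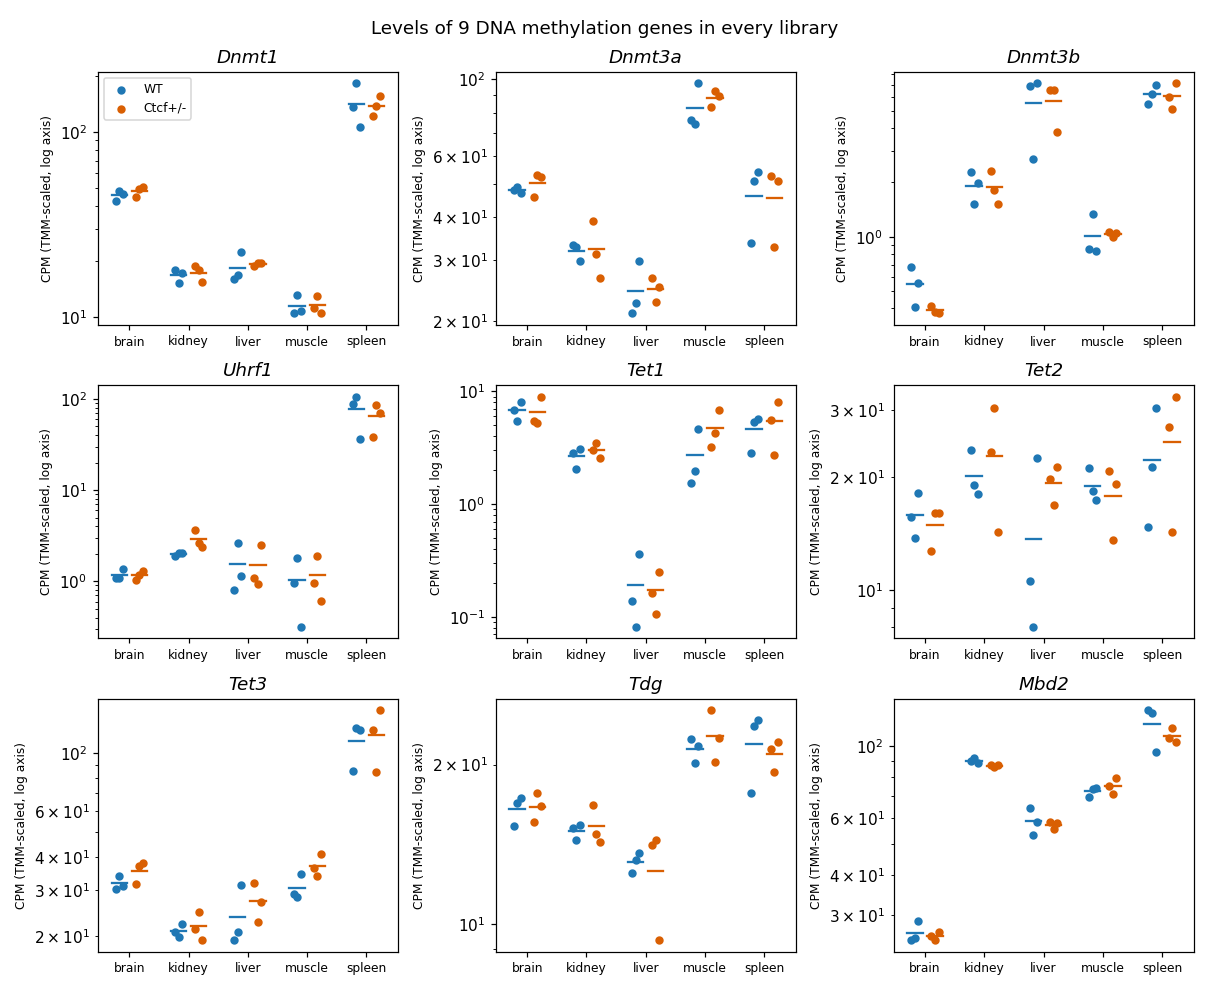
Level of each gene in every library, in TMM-scaled CPM on a log axis, by tissue, with WT in blue and Ctcf+/- in orange; a dot is 1 library and a bar the mean of 3. Dnmt1, Uhrf1 and Tet3 stand far higher in spleen than elsewhere, Tet1 is lowest in liver (0.0814 to 0.358 CPM), and WT and Ctcf+/- overlap in 42 of 44 tests; under total counts Dnmt3a is highest in brain and spleen, not in muscle.

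Uhrf1 was compared with S phase and mitosis genes between libraries of the same tissue, and the match was closest in spleen. The 16 listed cell cycle genes (among them Mki67, Top2a, Pcna and Mcm2 to Mcm7) summed to 2380, 2760 and 976 CPM in the WT spleen libraries and to 1010, 2230 and 1870 CPM in the Ctcf+/- ones. The 6 libraries had the same order for Uhrf1, and WT replicate 3 and Ctcf+/- replicate 1 were lowest for both. The library with the highest Uhrf1 was also the one with the highest cell cycle sum in 4 of 5 tissues, brain being the exception, and the lowest library matched in 3 of 5, failing in brain and liver. For Dnmt1 the top library matched in brain, kidney and spleen, not in liver or muscle. In liver these were WT replicate 2 (2.66 CPM of Uhrf1, a sum of 216 CPM), and in muscle Ctcf+/- replicate 2 (1.91 CPM, a sum of 105 CPM). Erythroid markers also differed between spleen libraries, with summed levels of 57500, 37700 and 9300 CPM in WT and 13200, 49100 and 22600 CPM in Ctcf+/-, all 8 markers being above 1 CPM in both groups. The part of proliferating or erythroid cells in the level of Uhrf1 was not tested.

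**Figure D2:**
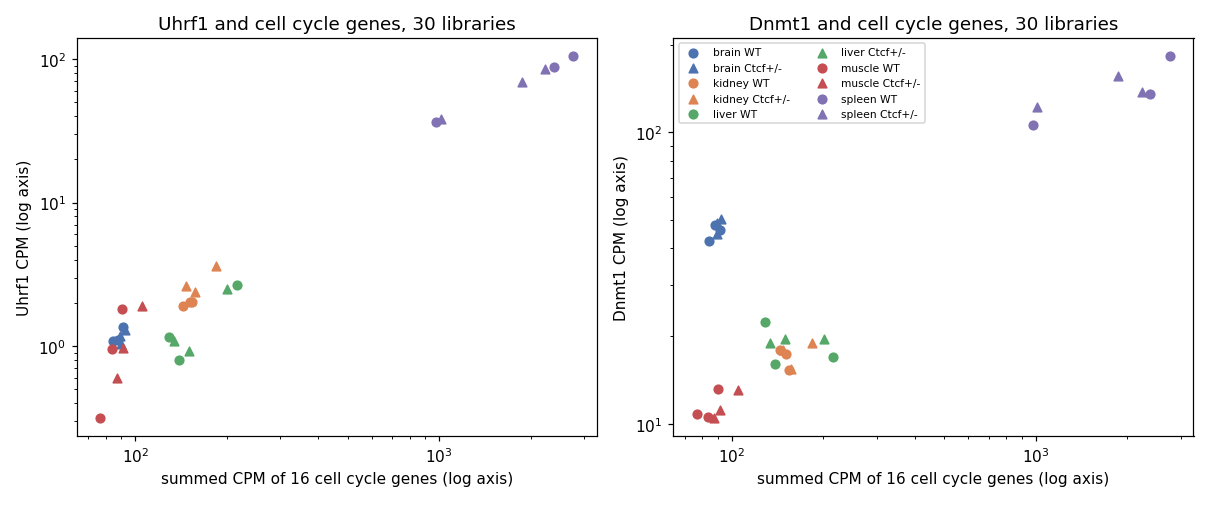
Level of Uhrf1 (left) and Dnmt1 (right) against the summed level of 16 cell cycle genes, both in CPM on log axes, for 30 libraries coloured by tissue, with circles for WT and triangles for Ctcf+/-. In spleen, Uhrf1 runs from 36.3 to 105 CPM as the sum runs from 976 to 2760 CPM, while brain holds Dnmt1 at 42.5 to 50.4 CPM with sums of only 84.2 to 92.4 CPM.

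Brain was the tissue where Dnmt1 stood apart from the cell cycle genes. Its brain level, 42.5, 48 and 46.2 CPM in WT and 44.7, 49 and 50.4 CPM in Ctcf+/-, was above every kidney, liver and muscle library. Uhrf1 in brain was only 1.03 to 1.36 CPM over the 6 libraries.

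The de novo writer Dnmt3a (ENSMUSG00000020661, chromosome 12, 3806007 to 3914443, plus strand) was highest in muscle on the TMM scale. WT muscle libraries held 76.4, 74.2 and 97.4 CPM and Ctcf+/- muscle libraries 83.1, 92.3 and 89.8 CPM, all above every library of the other tissues. WT means were 82.7 ± 12.8 CPM in muscle (SD, n = 3), 47.9 ± 0.852 in brain, 46.1 ± 11 in spleen, 32 ± 1.88 in kidney and 24.5 ± 4.66 in liver. Muscle exceeded brain by 0.89 on the log2 scale (SE 0.18, edgeR adjusted p = 0.00038), but under scaling by total counts the WT means were 51 CPM in muscle and 66.3 CPM in brain, so this order flips. Scaling moved the median of all genes by 1.27 (log2) between brain and muscle and by 1.09 between brain and liver.

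Dnmt3b (ENSMUSG00000027478, chromosome 2, 153649450 to 153687730, plus strand), the other de novo enzyme, was scarce outside spleen and liver. Spleen held 5.45, 6.19 and 6.92 CPM in WT and liver 6.84, 2.69 and 7.11 CPM, ranges that overlap (edgeR adjusted p = 0.671). In WT brain it stood at 0.678, 0.408 and 0.555 CPM. Liver exceeded kidney (1.92 ± 0.384 CPM) by 1.5 on the log2 scale (SE 0.34, edgeR adjusted p = 0.0016). Under total counts the WT means were 8.83 CPM in spleen, 3.54 in liver and 2.45 in kidney, so that liver stood nearer to kidney and farther from spleen. Dnmt3l, the catalytically inactive partner of the Dnmt3 enzymes, had a WT mean of at most 0.277 CPM, in kidney, and held 0 counts in the 3 WT liver libraries.

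Shares within the family do not depend on the scaling of libraries. Of the summed CPM per kb of the 3 methyltransferases, Dnmt1 made up 84.4% ± 5.14 in WT spleen (SD, n = 3), 70.7% ± 1.36 in brain, 53.8% ± 2.12 in kidney, 53.6% ± 4.67 in liver and 26.3% ± 4.32 in muscle. Muscle was the only tissue in which Dnmt3a led per kb, at 70.8% ± 5.18 in WT and 72.2% ± 1.76 in Ctcf+/-. The shares do depend on the annotated exon lengths, 16.6 kb for Dnmt3a and 6.3 kb for Dnmt1. In CPM, WT Dnmt3a was above Dnmt1 also in kidney (32 and 16.9), liver (24.5 and 18.5) and, within the spread, brain (47.9 and 45.6). Dnmt3b reached 19.4% ± 7.31 in WT liver and 1.06% ± 0.305 in WT brain. Per kb, Dnmt3a exceeded Dnmt3b by 28.1 ± 7.74 times in WT brain and by 1.61 ± 0.865 times in WT liver, where the ratio was lowest in WT replicate 1, at 0.945.

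**Figure D3:**
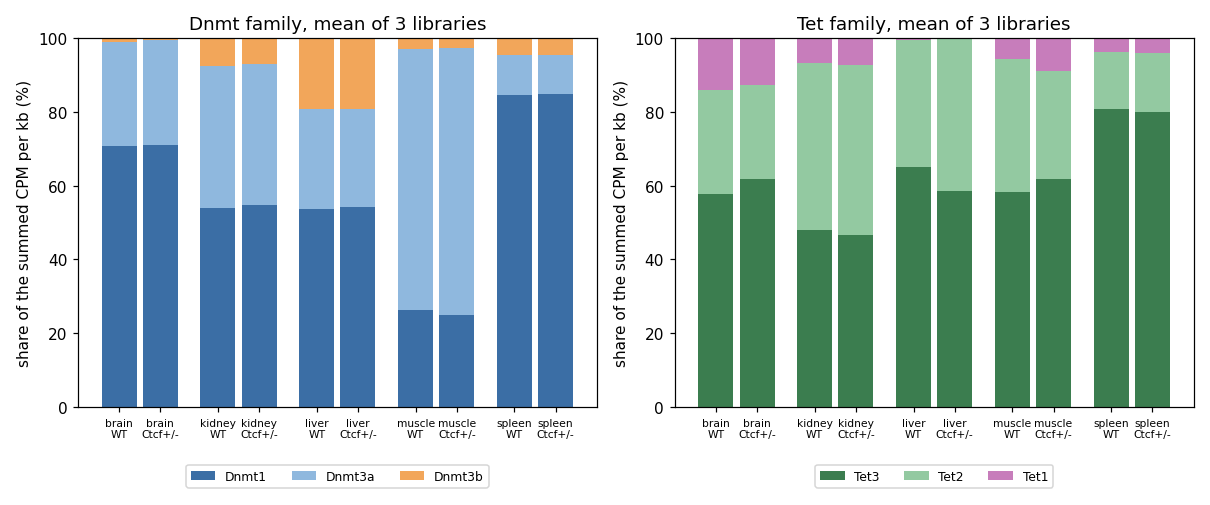
Share (%) of each Dnmt gene (left) and each Tet gene (right) in the summed CPM per kb of its family, as the mean of 3 libraries, for WT and Ctcf+/- in 5 tissues. Dnmt3a leads the Dnmt family in muscle only, Tet3 has the largest Tet share in brain, liver, muscle and spleen, Tet2 and Tet3 are nearly level in kidney (46.1% and 46.6% in Ctcf+/-), and Dnmt3a in muscle stands at 70.8% in WT and 72.2% in Ctcf+/-.

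Among the erasers, Tet3 (ENSMUSG00000034832, chromosome 6, 83362373 to 83459084, minus strand) had the highest WT mean per kb of the 3 Tet genes in each of the 5 tissues and was highest in spleen. In kidney its lead was within the spread: Tet2 was above Tet3 per kb in 1 of 3 WT and 2 of 3 Ctcf+/- libraries, and the Ctcf+/- means were 1.35 CPM per kb for Tet2 and 1.31 for Tet3. WT spleen libraries held 85.1, 124 and 122 CPM and Ctcf+/- ones 122, 84.6 and 145 CPM, above every library of the other tissues. WT means were 111 ± 22.1 CPM in spleen (SD, n = 3), 31.7 ± 1.85 in brain, 30.5 ± 3.4 in muscle, 23.8 ± 6.58 in liver and 21 ± 1.18 in kidney. Spleen exceeded brain by 1.76 on the log2 scale (SE 0.18, edgeR adjusted p = 4.7e-07). Brain and muscle did not differ beyond their spread (edgeR adjusted p = 0.838), nor did liver and kidney (adjusted p = 0.511).

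Tet1 (ENSMUSG00000047146, chromosome 10, 62804570 to 62899118, minus strand) was nearly absent from liver, at 0.138, 0.0814 and 0.358 CPM in WT and 0.163, 0.105 and 0.25 CPM in Ctcf+/-, values that rest on 3 to 14 counts per library. It was highest in brain, at 6.87, 5.5 and 8.09 CPM in WT. Kidney, at 2.67 ± 0.555 CPM in WT, exceeded liver by 3.81 on the log2 scale (SE 0.54, edgeR adjusted p = 3.2e-05). Brain, spleen (4.65 ± 1.58 CPM) and muscle (2.71 ± 1.69 CPM) did not differ from their neighbours in the order beyond their spread. Tet1 made up 14% ± 2.13 of the summed Tet level per kb in WT brain and 0.533% ± 0.216 in WT liver.

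Tet2 (ENSMUSG00000040943, chromosome 3, 133463679 to 133545139, minus strand) showed the smallest range, with WT means from 13.7 ± 7.7 CPM in liver to 22.2 ± 7.94 CPM in spleen (SD, n = 3). None of its 10 tissue pairs was called. Under total counts 6 of its 10 pairs were called, and without WT liver replicate 3, which held 22.4 CPM beside 10.6 and 8.01 CPM in the other WT liver libraries, 4 were. Tet2 came nearest to Tet3 in kidney, with 45.3% ± 4.2 of the summed Tet level per kb in WT against 47.9% ± 3.66 for Tet3.

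Tdg (ENSMUSG00000034674, chromosome 10, 82629828 to 82650799, plus strand), the glycosylase that completes the oxidative pathway, was similarly even, from 13.1 ± 0.554 CPM in WT liver to 21.8 ± 3.6 CPM in WT spleen. Muscle, at 21.4 ± 1.12 CPM, exceeded brain by 0.48 on the log2 scale (SE 0.13, edgeR adjusted p = 0.00433), an order that flips under total counts. Its values are uncertain: 33.8% of the 75-base stretches of its annotated transcripts also occur in other genes, foremost the pseudogene Tdg-ps, and fragments that aligned to several places were not counted. The same share was 9.05% for Uhrf1 (a Gm-named gene model), 6.17% for Dnmt3b (its duplicate Dnmt3c) and at most 0.281% for the other 6.

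The reader Mbd2 (ENSMUSG00000024513, chromosome 18, 70568189 to 70626131, plus strand) led all 9 members per kb of exon length in every tissue, from 8.24 ± 0.612 CPM per kb in WT brain (SD, n = 3) to 36.4 ± 5.8 in WT spleen. In WT brain the lead was slight, with Dnmt1 at 7.23 CPM per kb. The lead depends on annotated exon lengths, 3.21 kb for Mbd2 and 16.6 kb for Dnmt3a. In CPM, Mbd2 led by WT mean only in kidney and liver. Above it stood Dnmt1 (45.6), Dnmt3a (47.9) and Tet3 (31.7) in brain, Dnmt3a (82.7) in muscle and Dnmt1 (142) in spleen. The WT means of Mbd2 in CPM were 117 ± 18.7 in spleen, 90.1 ± 1.71 in kidney, 72.5 ± 2.5 in muscle, 58.6 ± 5.42 in liver and 26.5 ± 1.97 in brain. The brain libraries, 25.1, 25.6 and 28.7 CPM in WT, were below those of all other tissues, and liver exceeded brain by 1.1 on the log2 scale (SE 0.12, edgeR adjusted p = 1.07e-06), though under total counts the WT means of liver and brain were 36.8 and 36.7 CPM.

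Over the 10 pairs of WT tissues, 59 of the 90 member comparisons were called by edgeR at an adjusted p under 0.05, between 0 for Tet2 and 9 each for Dnmt1 and Mbd2. Shares over all 22933 genes were of similar size. With brain as 1 side, 6 of 9 members were called against kidney (71.4% of genes), 7 against liver (73.2%), 6 against muscle (72.3%) and 6 against spleen (79.8%). With kidney, 3 were called against liver (54.1% of genes), 4 against muscle (64.4%) and 7 against spleen (75.5%). Liver against muscle gave 7 (64.2% of genes), liver against spleen 7 (72.9%) and muscle against spleen 6 (75.2%). Spleen was the highest tissue for 7 of the 9 members, against 26.5% of 15977 genes with a mean of at least 1 CPM. The count stayed at 7 under total counts and was 6 with DESeq2 size factors, which put Tdg highest in muscle. On the TMM scale spleen did not differ beyond the spread from the next tissue for Dnmt3b, Tet2 and Tdg (edgeR adjusted p of 0.671, 0.724 and 0.454). For Tdg the fitted log2 difference of spleen over muscle was -0.11. The ratio of the highest to the lowest WT tissue had a median of 5.27 over the members and of 9.57 over 14970 genes, and Tet2 and Tdg lay among the most even genes, with only 1.96% and 2.24% of genes having a smaller ratio. In the Ctcf+/- libraries the full order of the 5 tissues was the same for 6 of 9 members, the exceptions being Tet2, Tet3 and Tdg. Among scalings of the WT libraries, the full order was the same as with TMM for 7 of 9 members with DESeq2 size factors and for only 1 of 9 under total counts.

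The genes whose WT levels followed each member best, by Pearson r of log2 CPM over 15 WT libraries and among 14821 genes, are a description that rests mainly on the differences between 5 tissues. For Uhrf1 they were Pclaf (r = 0.987), Kifc5b (0.984) and Chek1 (0.983). Pclaf binds the replication clamp, and Chek1 is a checkpoint kinase. For Dnmt1 they were Apaf1 (0.991), Dck (0.987) and Rad18 (0.986), and for Dnmt3a they were Fgf2, Mast4 and Zfp516 (0.961 to 0.971). Dnmt3b was followed by Crybg1, Oasl1 and Ifi47 (0.972 each), of which Oasl1 and Ifi47 are interferon-induced. Slc38a9 (0.983) and Epc1 (0.978) were among the 3 for Tet3, and Tet1 was followed by Xylt1 (0.974), Herc3 and Zfp251, and Mbd2 by Myo1c (0.974), Aff1 and Fam129a. Tet2 had the weakest likeness, with Dmxl1 at 0.839, followed by Fam199x and Tbc1d23, and Tdg was followed by Arhgef6 (0.945), Wdr44 and Foxj2. Between members the closest were Dnmt1 with Tet3 (0.86), Dnmt1 with Uhrf1 (0.842), Uhrf1 with Tet3 (0.841) and Dnmt3a with Tdg (0.833).

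The comparison of genotypes asked whether these genes changed with Ctcf dosage. None of the 9 members was called in any tissue by edgeR's quasi-likelihood test. Called genes made up 0.242% of 18615 genes in spleen, 0.0249% of 16064 in muscle, 0.0193% of 15584 in liver, 0.0211% of 18937 in kidney and 0.0157% of 19166 in brain, so a count of 0 among 9 is near the background. Of 44 tests of a member in a tissue (Tet1 was too low to test in liver), 2 had an unadjusted p under 0.05, where 3.52% of genes did in spleen, 6.45% in muscle, 4.56% in liver, 6.44% in kidney and 2.96% in brain. DESeq2 called 0 members as well. The precision differed by tissue: the median half-width of the 95% confidence interval of a member's log2 fold change was 0.2 in brain, 0.31 in kidney, 0.33 in muscle, 0.46 in liver and 0.6 in spleen, and 36 of the 44 intervals lay within a 2-fold change in either direction.

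**Figure D4:**
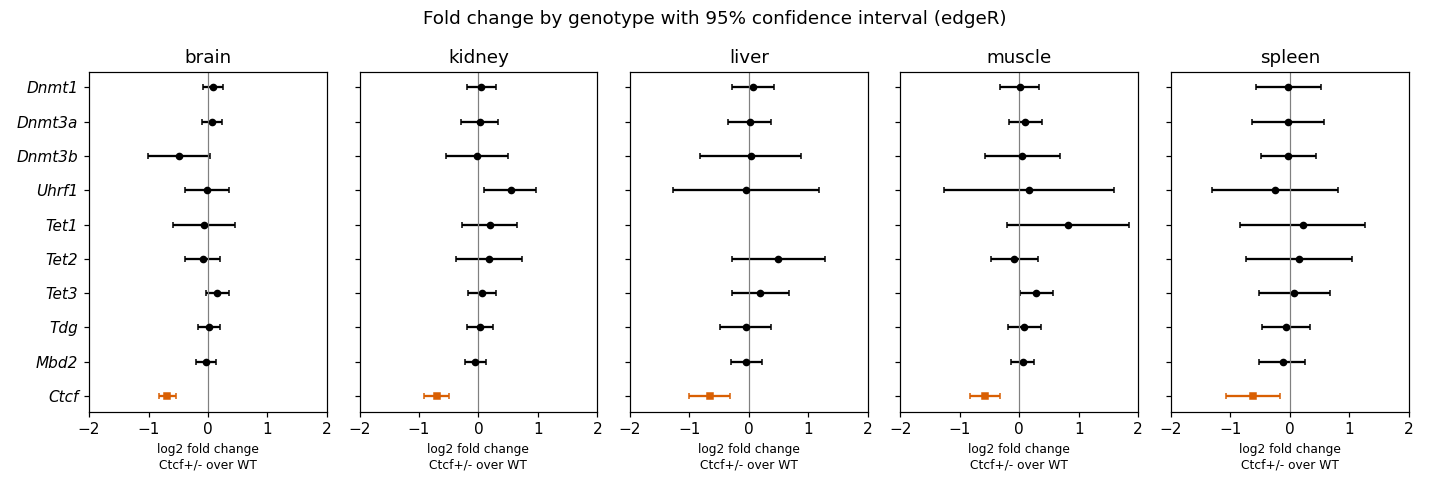
Log2 fold change of Ctcf+/- over WT for each gene in each tissue, as points with 95% confidence intervals from edgeR, with Ctcf itself as an orange square. The members' points lie between -0.48 and 0.82, 2 of 44 intervals leave out 0 (Uhrf1 in kidney and Tet3 in muscle), and Tet1 has no point in liver.

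Uhrf1 in kidney was the member with the smallest p. WT kidney libraries held 1.9, 2.02 and 2.03 CPM, and Ctcf+/- ones 3.63, 2.61 and 2.39 CPM. All 3 Ctcf+/- libraries were above all 3 WT libraries, and Uhrf1 and Mbd2 were 2 of 9 members that did not overlap in kidney, as did 11.4% of genes. In the other tissues 0 members did not overlap, against 7.83% of genes in brain, 8.99% in liver, 12.2% in muscle and 6.64% in spleen. The log2 fold change of Uhrf1 in kidney was 0.54 (SE 0.19, edgeR unadjusted p = 0.0216, adjusted p = 0.639). With the replicate number as a block the edgeR adjusted p was 0.467. Without Ctcf+/- replicate 1 the log2 fold change was 0.33. That library also had the highest cell cycle sum in kidney, 184 CPM beside 144 to 157 CPM in the other 5 libraries. Of the cell cycle genes, 12 of the 16 listed had a log2 fold change above 0 in kidney, with a median of 0.35 beside 0 for all genes, and Cdk1, the mitotic kinase, stood at 1.72 ± 0.0619 CPM in WT and 3.23 ± 1.44 in Ctcf+/- (edgeR adjusted p = 0.572). The part of dividing cells in the difference of Uhrf1 was not tested. Mbd2 in kidney stood at 89.7, 92 and 88.6 CPM in WT and 87.6, 86 and 87.7 CPM in Ctcf+/-, but the log2 fold change was only -0.05 (SE 0.07, edgeR adjusted p = 0.999).

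Tet3 had the smallest p of the members in the fit over all tissues, without passing the test. In muscle, WT libraries held 29, 28.1 and 34.4 CPM and Ctcf+/- ones 36.4, 33.9 and 41.2 CPM, groups that overlap by 1 library. The log2 fold change in muscle was 0.28 (SE 0.12, edgeR unadjusted p = 0.0465, adjusted p = 0.767). Across all 30 libraries, with tissue as a covariate, Tet3 gave a log2 fold change of 0.18 (95% confidence interval 0.02 to 0.33, edgeR unadjusted p = 0.0319, adjusted p = 0.754). It was above 0 in 5 of 5 tissues, and 11 of 15 Ctcf+/- libraries were above the WT mean of their tissue. Over the members that library count ran from 3 (Mbd2) to 11 (Tet3 and Tet2). The methyl-CpG readers Mbd1, Mbd5 and Zbtb4 matched Tet3 in both counts without being called. Such counts were not made for all genes, and the 15 libraries are not 15 animals. In the fit over all 30 libraries 0 members were called, as against 0.194% of 24262 genes. Tet3 was the 1 member with an edgeR unadjusted p under 0.05, as were 5.91% of genes. The fit takes the 30 libraries as independent, though tissues may share mice, and 0 members had an unadjusted p under 0.05 with the mouse as a random effect (limma-voom), with DESeq2 size factors or total counts in edgeR, or without the brain, liver or muscle libraries. The same fit gave Ctcf a log2 fold change of -0.63 (edgeR adjusted p = 4e-07), with 15 of 15 Ctcf+/- libraries below the WT mean. For no member was a difference of the genotype effect between tissues detected (0 called by the interaction test of edgeR, against 0.758% of genes, and 0 with an unadjusted p under 0.05, against 6.66% of genes).

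The intervals of the other members ranged from wide to narrow, and none passed the test. Tet1 in muscle had the largest log2 fold change, 0.82 with a 95% confidence interval of -0.21 to 1.84, from 1.53, 1.95 and 4.64 CPM in WT and 3.21, 4.28 and 6.79 CPM in Ctcf+/-. It was 1.45 without WT replicate 3 (edgeR adjusted p = 0.324), 0.53 without WT replicate 1 (adjusted p = 0.953) and 0.48 without Ctcf+/- replicate 3 (adjusted p = 1). Dnmt3b in brain had the lowest, -0.48 with an interval of -1.01 to 0.04, from 0.412, 0.381 and 0.375 CPM in Ctcf+/-, of which 1 overlaps the WT range. Over all tissues Mbd2 was the most tightly bounded, with a shared log2 fold change of -0.02 and an interval of -0.11 to 0.07, followed by Dnmt1 at 0.06 (-0.07 to 0.18) and Tdg at 0.02 (-0.11 to 0.15). Uhrf1, at 0.09 with an interval of -0.34 to 0.52, was the least certain, and its sign turned to -0.04 without the kidney libraries. These shared intervals come from the fit that takes libraries as independent, and they may be too narrow.

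The levels of 4 members with long transcripts were compared with those of all long genes, library by library. Only in spleen did both the lowest and the highest library match. Dnmt3a, Tet1, Tet2 and Tet3 have exon lengths of 14.7 to 16.9 kb, and in spleen WT replicate 1 and Ctcf+/- replicate 2 were the lowest 2 of 6 libraries for each of the 4. Tet2, for example, stood at 14.7 and 14.3 CPM there and at 21.3 to 32.6 CPM in the other 4. In the same libraries all genes with at least 10 kb of exons (799 of them at a mean of at least 5 CPM in spleen) were low relative to genes of 1 to 3 kb, by -0.52 and -0.65 on the log2 scale as deviations from the tissue mean, while the other 4 spleen libraries ranged from 0.17 to 0.48. In liver, WT replicate 3 was high for the 4 members (by 0.52 on average, log2) and for long genes (0.27). The library lowest for the 4 members was the one lowest for long genes in 3 of 5 tissues, and likewise for the highest. Within tissues the mean of this long-gene measure differed little by genotype, being -0.03 in WT and 0.02 in Ctcf+/- muscle and -0.04 and 0.03 in spleen. The labels state an RNA integrity number over 7 for the samples; the part of RNA quality in these levels was not tested. The same 2 spleen libraries had the highest erythroid sums, 57500 and 49100 CPM against 9300 to 37700 CPM in the other 4, and the part of erythroid cells was not tested either. Without those 2 spleen libraries, an alternative chosen after seeing the data, 0 members were called in spleen. That fit called 0 of all 19045 genes tested, so its count for the members carries no information.

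**Figure D5:**
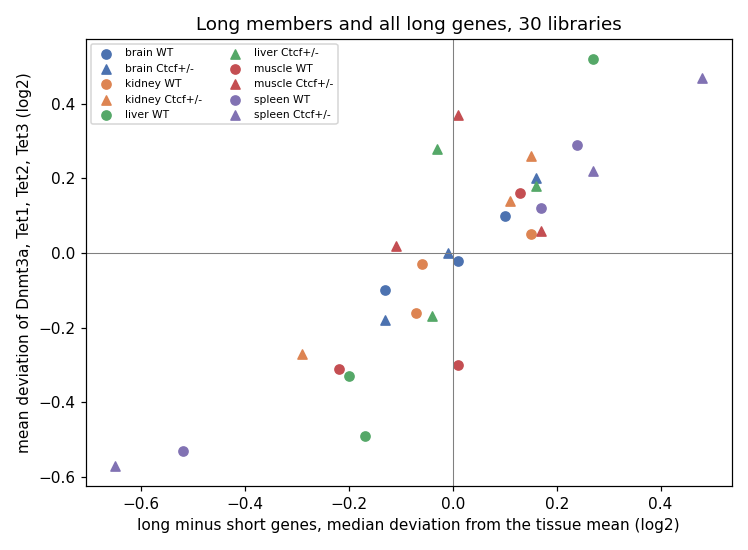
Mean deviation from the tissue mean of Dnmt3a, Tet1, Tet2 and Tet3 against the same for all genes of at least 10 kb less that for genes of 1 to 3 kb, both in log2 units, for 30 libraries coloured by tissue, with circles for WT and triangles for Ctcf+/-. The 2 spleen libraries at the lower left (-0.52 and -0.65 on the horizontal axis) are of different genotype. On that axis WT points run from -0.52 to 0.27 and Ctcf+/- points from -0.65 to 0.48.

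Of 75 listed companion genes of the pathway, none was called in brain, kidney, liver or muscle, and 2 of the 73 tested in spleen were, both lower, where 0.242% of all genes were called. The lists held 10 partners of the writers, 20 of the erasers and of base excision repair, 8 other methyl-CpG readers, 11 NuRD subunits, 10 genes of the methyl donor cycle and 16 cell cycle genes. The called genes were Bhmt, which remethylates homocysteine, and Mat1a, the hepatic S-adenosylmethionine synthetase. Bhmt had 120, 93 and 124 counts in WT spleen libraries and 0, 2 and 3 in Ctcf+/- ones, so that the Ctcf+/- level was 1.39% of WT (exact binomial 95% interval 0.448 to 3.27, counting error only; edgeR adjusted p = 0.0345). Mat1a had 95, 93 and 107 counts in WT and 0, 2 and 0 in Ctcf+/-, or 0.635% of WT (0.0765 to 2.31; edgeR adjusted p = 0.0348). Both enzymes are known for their abundance in liver. The 6 hepatocyte markers summed to 23.3 to 29.8 CPM in the WT spleen libraries and to 0.063 to 0.26 CPM in the Ctcf+/- ones, whereas kidney tubule markers summed to 0.0588 to 0.265 CPM in WT and 8.42 to 17.1 CPM in Ctcf+/-. The part of liver or kidney RNA in these 2 calls was not tested. The other 8 genes of the donor cycle were not called. Both calls were lost with the replicate number as a block and when any single spleen library was left out, except that 1 call was made without Ctcf+/- replicate 2.

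Companions whose groups did not overlap numbered 8 of 73 in spleen (6.64% of all genes), 10 of 70 in muscle (12.2%), 3 of 73 in liver (8.99%), 12 of 75 in kidney (11.4%) and 4 of 73 in brain (7.83%), and outside spleen none of them was called. Gadd45a, which takes part in repair-linked demethylation, stood at 7.76 ± 1.13 CPM in WT and 4.2 ± 1.01 in Ctcf+/- liver (SD, n = 3; log2 fold change -0.89, SE 0.22, edgeR adjusted p = 0.632), but at 76 ± 6.48 and 99.6 ± 12.3 CPM in muscle (0.39, SE 0.12, adjusted p = 0.519), so the signs differ between those tissues. Bhmt in kidney had a log2 fold change of -1.15 (SE 0.29, edgeR adjusted p = 0.425) and Mta3, a NuRD subunit, one of -0.38 (SE 0.11, adjusted p = 0.528). In brain E2f1, Idh2 and Ung, and in muscle Idh1 and Top2a, met the same rule, with edgeR adjusted p of 0.632 to 1. The cell cycle list as a whole had a median log2 fold change of 0.35 in kidney, 0.37 in muscle, 0.05 in liver, 0.01 in brain and -0.25 in spleen. The medians of all genes were 0, -0.008, -0.011, -0.004 and -0.004 in that order. In spleen all 16 genes were below 0 and 0 were called. Their sums overlapped there, at 976 to 2760 CPM in WT and 1010 to 2230 CPM in Ctcf+/-, and genes of a list are not replicates of each other.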

How the data were processed

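RNA-seq counts of 30 mouse libraries were used. Per the file headers, the authors made the deposited counts with featureCounts 1.5.0-p3 on Ensembl release 86 of GRCm38, counting fragments on exons, without strand, without the options that admit multi-mapping fragments or fragments shared by genes; genes with overlapping exons therefore lose fragments (6.83% of Tdg's exon length, 0.799% of Dnmt3a's and 0.255% of Tet2's). The submitters' processing notes name FastQC, STAR and DESeq2; read length is not given in the sources used here.

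Counts were tested with edgeR 4.0.16 in R 4.3.3: filterByExpr, TMM, quasi-likelihood F-test, Benjamini-Hochberg adjustment over all genes tested, called at an adjusted p under 0.05. Each tissue was fitted alone for genotype. All 30 libraries were fitted for a shared and a differing effect, and the 15 WT libraries for tissue pairs. Levels use TMM within a tissue, with 1 constant per tissue that sets it on the scale of all libraries, and log2 CPM has a prior count of 2. With 3 against 3 libraries an exact permutation test cannot go below 0.1. Total counts were 49.8 to 131.6 M per library, and 3 counts are taken as the limit that a count of 0 allows; limits and intervals of counts cover counting error only. No pair of replicates agreed within sampling noise (chi-square per degree of freedom 15.4 to 640 over 30 pairs).

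Replicate numbers recur in both genotypes. Deviations of same-numbered libraries correlated above 0.1 for every number in kidney only (r of 0.155 to 0.238), where the numbers were taken to pair libraries. In brain the r were 0.086, 0.324 and 0.42, the first below that limit. Kidney values are nonetheless printed from the fit without the block unless stated. The blocked fit called 21 genes in kidney in place of 4, and 0 members.

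Members, lists and tests were chosen with earlier results of these data known. The rule for naming gave all 9 members with levels, a fold change where a member was called, had an unadjusted p under 0.05 or did not overlap, and up to 3 companions per tissue by p. Exceptions chosen after their values were seen are the range ends Tet1 in muscle and Dnmt3b in brain, the shared effects, and the comparison with long genes. Alternatives were DESeq2 1.42.0, other scalings and filters, 1 fit for all libraries, a replicate block, limma 3.58.1 voom with the mouse as a random effect, and leaving out each library or tissue. The main edgeR tests were run on simulated counts that had the same spread for every gene, with changes only in well-counted genes. The alternatives were not simulated, and such a trial says little about low or variable genes. Some genes that the rule would name are not reported here.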

Additional observations from a re-analysis of the deposited data

How the results depend on the processing

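In 83 alternative values of the 7 counts of called members, 0 members were called for genotype in any tissue, in the shared effect or in the interaction. The smallest adjusted p of a member was 0.0902, for Tet1 in muscle with a replicate block, and 0.22, for Tet2 in liver without WT replicate 3. The number of all genes called moved far more: 0 to 250 in spleen, 1 to 229 in muscle, 1 to 73 in liver, 2 to 164 in kidney and 0 to 28 in brain, with DESeq2 calling 187 in spleen against 45 by edgeR. With the replicate block, edgeR called 0 genes in spleen, 118 in muscle, 7 in liver, 21 in kidney and 22 in brain. Outside kidney, same-numbered libraries did not correlate above 0.1 for every number and were not taken as paired. The 2 companion genes called in spleen became 0 with the replicate block, and 0 to 1 when 1 library was left out. They also became 0 without the 2 spleen libraries low in long genes (chosen after seeing the data), a fit calling 0 of 19045 genes. A filter of 10 counts in every library removes both genes before testing, since their Ctcf+/- counts were at most 3. That filter cannot test these calls. The shared log2 fold change of Uhrf1 turned from 0.09 to -0.04 with limma-voom and the mouse as a random effect, and to -0.04 without the kidney libraries; the cause was not tested. That of Tet3 ranged from 0.14 to 0.2. The 59 tissue pairs called became 70 under total counts (51 called in both, 2 of them with the opposite sign, 8 lost and 19 added; 15 of all 90 changed sign), and 55 to 64 when 1 library was left out. Depth limits Tet1 in liver (3 to 14 counts per library) and spread limits spleen.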
